A study of Mus musculus with 3 samples.

Results

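Protein phosphatases remove phosphate from serine and threonine residues, and protein kinase A (PKA) adds it when cyclic AMP is high. The genes described here encode the catalytic and regulatory subunits of the phosphatases PP1, PP2A, PP2B (calcineurin), PP4, PP5 and PP6, the catalytic and regulatory subunits of PKA, and the A-kinase anchoring proteins (AKAPs) that hold PKA at particular places in the cell. They were chosen by gene symbol alone (symbols that begin with Ppp1 to Ppp6, Prkac, Prkar or Akap and a number), which gave 165 of the 41174 non-control probes of the array, for 77 genes. The family was proposed with the ratios of these arrays known, and Prkar2b and Ppp2r5c were already among the leading genes of the treatment. All differences between HP and control are therefore given as description, with no test of the family.

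A phosphatase catalytic subunit has little specificity of its own, and the regulatory subunit bound to it sets its place and substrate. PP1 uses many unrelated regulators, whereas PP2A joins a catalytic and a scaffold subunit to a regulatory subunit of the B55, B56 or B″ class. Calcineurin is switched on by calcium, which oscillates in the mammalian egg at fertilisation. PKA is held inactive by its regulatory subunits until cyclic AMP releases the catalytic subunits, and high PKA activity keeps the mouse oocyte in meiotic arrest. PP1 and PP2A oppose cyclin-dependent kinase at the exit from mitosis and meiosis.

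RNA came from pools of mouse four-cell embryos. In the HP pools the oocytes had been held under hydrostatic pressure of 20 MPa for 60 min at 37 °C, and the control oocytes were kept alike without pressure. Per the sample labels, oocytes of both groups were then fertilised by injection of a sperm cell and cultured to the four-cell stage. The series title instead says in vitro fertilized, and the labels are followed here. The labels used here give no strain, age or donor of the oocytes. The 3 HP pools held 44, 30 and 37 embryos and the 3 control pools 36, 33 and 24 embryos (pools 1, 2 and 3 in each case), and an array carried the HP pool in Cy5 with the control pool of the same number in Cy3. Dye and treatment cannot be told apart, because the dyes were never swapped. Each ratio is HP over control on the log2 scale. In pooled embryos, fewer cells that hold a transcript and less of that transcript per cell cannot be told apart. Each pool entered with 240 pg of RNA, and each array was normalized within itself, so ratios do not measure total RNA or embryo number.

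The share of non-control spots well above background was 17.5% to 19.9% in the HP channels and 18.5% to 23.2% in the control channels, and no spot was saturated. Of 13 oocyte and early embryo markers on the array, 8 were above background in every HP pool and 7 in every control pool, while Zp2, Nlrp5, Zar1 and Padi6 were above it in none. The log2 of the summed signal of these markers was 14.3 to 15.1 in HP pools and 13.8 to 14.1 in control pools. The groups did not overlap in this sum, in which the brightest markers weigh most. The median log2 ratio over the markers was 0.04. None of 8 cumulus and granulosa cell markers was above background in all pools of either group, and 7 of them were above it in no pool. The log2 of their summed signal was 9.29 to 9.32 in HP pools and 9.29 to 9.33 in control pools. Hba-a1, 1 of 2 blood markers, was above background in 3 HP pools and 1 control pool, and Prm1, 1 of 5 sperm and testis markers, in 2 HP pools and 3 control pools. Their part in the results was not tested. HP pools 2 and 3 stood close together. The SD over genes of the difference between them was 0.231 log2 units (0.185 over the family), against 0.462 to 0.642 for the other pairs of pools (0.390 to 0.706 over the family). Across genes the ratios of arrays 2 and 3 correlated at r = 0.65 (0.67 across the 34 family genes tested), against 0.23 and 0.22 for array 1 with arrays 2 and 3 (0.30 and 0.20 across the family). These arrays share no pool, and genes are not independent replicates.

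As on the array as a whole, most of the family was near or below the detection limit. Tests were kept to probes that the scanner software called well above background on 2 or more of the 3 arrays in HP, or in control. This left 44 of 165 probes and 34 of 77 genes of the family. Over the whole array it left 8590 of 41174 probes and 7254 of 27671 genes, a smaller share of each. Of the other family genes, 14 were above background in at least 1 pool and 29 in none. The catalytic subunits of PP1 were tested for 3 of 3 genes (Ppp1ca, Ppp1cb, Ppp1cc), and the genes of PP4 to PP6 for 5 of 5. The PP1 regulators were tested for 7 of 29 genes, with 16 above background in no pool. PP2A gave 1 of 4 catalytic and scaffold genes (Ppp2ca) and 7 of 11 regulatory genes. Calcineurin gave 3 of 5 genes and the A-kinase anchors 6 of 14. Both scaffold genes of PP2A, Ppp2r1a and Ppp2r1b, were above background in no pool, and so were the regulatory PKA genes Prkar1a and Prkar1b. The 2 catalytic PKA genes, Prkaca and Prkacb, were each above background in 1 control pool and in no HP pool, so neither was tested. A gene that the array did not detect may still have been expressed, since detection depends on the probe, and on an array a dim probe has only a bound.

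Because several of the genes gave different ratios at different probes, the sequences that were measured matter to what follows. Each probe is 60 bases long, is printed 5′ to 3′ as the array files give it, and has the position and strand that the array design gives on the mouse build mm7. Capitals mark AATAAA, the hexamer of the polyadenylation signal. Only the Ppp1r2 probe shown here holds it, and whether it is used there was not tested. Prkar2b had a single probe on the array, at chr12:29798084-29798143 on the minus strand.
Prkar2b: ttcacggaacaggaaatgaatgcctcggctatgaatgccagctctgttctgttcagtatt
Where a gene had several tested probes, it was read at the one with the highest mean signal, called the brighter or brightest here. For Ppp2r5c the brighter probe, designed to a cDNA clone, lies at chr12:108100742-108100801 and the dimmer one, designed to the RefSeq transcript, at chr12:108088967-108089026, both on the plus strand and within a span of 11835 bases.
Ppp2r5c brighter: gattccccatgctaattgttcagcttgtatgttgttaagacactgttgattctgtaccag
Ppp2r5c dimmer: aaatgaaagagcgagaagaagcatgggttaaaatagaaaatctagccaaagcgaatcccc
For Ppp2r5e, on the minus strand, the brighter probe of a cDNA clone lies at chr12:73473721-73473780, and the RefSeq probe lies 3′ of it at chr12:73418157-73418216, within a span of 55624 bases.
Ppp2r5e brighter: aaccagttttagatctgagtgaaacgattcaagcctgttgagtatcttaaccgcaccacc
Ppp2r5e dimmer: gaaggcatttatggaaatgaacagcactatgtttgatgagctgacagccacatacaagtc
For Ppp1cc and Ppp2ca the probes lie closer together on the plus strand, within 914 and 1513 bases, at chr5:121409414-121409473 and chr5:121408560-121408619 for Ppp1cc and at chr11:52079155-52079214 and chr11:52077702-52077761 for Ppp2ca. The brighter probe is the 3′ one in both genes.
Ppp1cc brighter: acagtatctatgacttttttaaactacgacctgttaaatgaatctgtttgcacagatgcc
Ppp1cc dimmer: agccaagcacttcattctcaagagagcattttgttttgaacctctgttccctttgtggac
Ppp2ca brighter: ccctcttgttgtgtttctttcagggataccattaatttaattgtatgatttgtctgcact
Ppp2ca dimmer: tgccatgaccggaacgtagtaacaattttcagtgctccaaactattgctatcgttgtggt
Ppp6c, on the minus strand, had 3 tested probes, the brightest at chr2:39204129-39204188, one 3′ of it at chr2:39202302-39202361 designed to a cDNA clone, and one 5′ of it at chr2:39207370-39207429.
Ppp6c brightest: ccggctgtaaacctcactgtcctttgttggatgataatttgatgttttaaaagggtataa
Ppp6c 3′ probe: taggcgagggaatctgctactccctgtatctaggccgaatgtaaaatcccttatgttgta
Ppp6c 5′ probe: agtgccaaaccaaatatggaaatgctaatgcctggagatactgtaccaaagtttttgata
The tested probe of Ppp3cb, again of a cDNA clone, lies at chr14:18164471-18164530, and the brightest probe of Ppp1r2 at chr16:30928519-30928578, both on the minus strand.
Ppp3cb: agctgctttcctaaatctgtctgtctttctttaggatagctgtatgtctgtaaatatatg
Ppp1r2 brightest: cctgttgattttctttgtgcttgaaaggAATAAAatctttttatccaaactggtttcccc
The exon, intron or untranslated region behind each probe was not analysed here.

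Across the 34 tested genes the ratios spread on both sides of 0, with more genes above it than below. The median over the family was 0.06, 0.22 and 0.20 on arrays 1, 2 and 3 (0.16 ± 0.09, SD, n = 3), beside −0.02, −0.01 and 0.00 over all 7254 tested genes. The mean ratio was above 0 for 19 family genes (55.9%), beside 48.3% of all tested genes. The ratio was above 0 on all 3 arrays for 14 family genes (41.2%), beside 23.2% of all genes, and below 0 on all 3 for 2 (5.88%, Akap1 and Ppp2r3a), beside 25% of all genes. The sign of the family median depended on the scaling, but its place above the median of all genes did not. With each array centred on the median of its non-control spots in place of loess, the family median was −0.26. Taken over the mean ratios of the genes, the median with loess was 0.07 in the family and −0.01 over all genes, and with median centring it was −0.25 in the family and −0.39 over all genes.

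In 12 family genes (35.3%) every HP pool had a higher signal than every control pool, beside 13.1% of all genes, and in 0 every HP pool was lower, beside 13.3%. The 12 were Prkar2b, Akap2, Akap8, Akap11, Ppp1cc, Ppp1r14b, Ppp2ca, Ppp2r5c, Ppp2r5e, Ppp3cb, Ppp4r2 and Ppp6c. Akap11 was detected on too few control arrays and Akap1 on too few HP arrays to pass the filter in that group. Each was therefore tested only through the group where it was higher. The same held for Ppp1r1a, tested only through HP, and for Akap10, Ppp1r1b, Ppp3cc, Ppp3r1 and Ppp4c, tested only through control. Among the 26 family genes detected on at least 2 arrays in HP and also in control, 13 were above 0 on all 3 arrays (24% of all genes so detected), 1 was below 0 on all 3 (23.2%), 11 had every HP pool above every control pool (13.7%) and 0 had every HP pool below (14.2%). These counts come from the contrast with which the family was proposed and are not read further. No family gene passed the adjusted threshold of 0.05 over all genes (limma with Benjamini-Hochberg adjustment, 0 of 7254 genes called, 0%), and the lowest adjusted p in the family was 0.174, which was also the lowest of all genes. At an unadjusted limma p under 0.05 there were 7 family genes higher in HP (20.6%), beside 7.25% of all genes, and 0 lower, beside 11.2% of all genes. The 7 were Prkar2b, Akap2, Ppp1cc, Ppp1r14b, Ppp2r5c, Ppp2r5e and Ppp6c. When replicates 2 and 3, whose HP pools stood close together, were averaged into 1, the family median was 0.15. There were then 3 higher family genes at that unadjusted threshold. The share of all genes in that setting is not given, so the fall from 7 is not read as a result about the family.

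**Figure D1:**
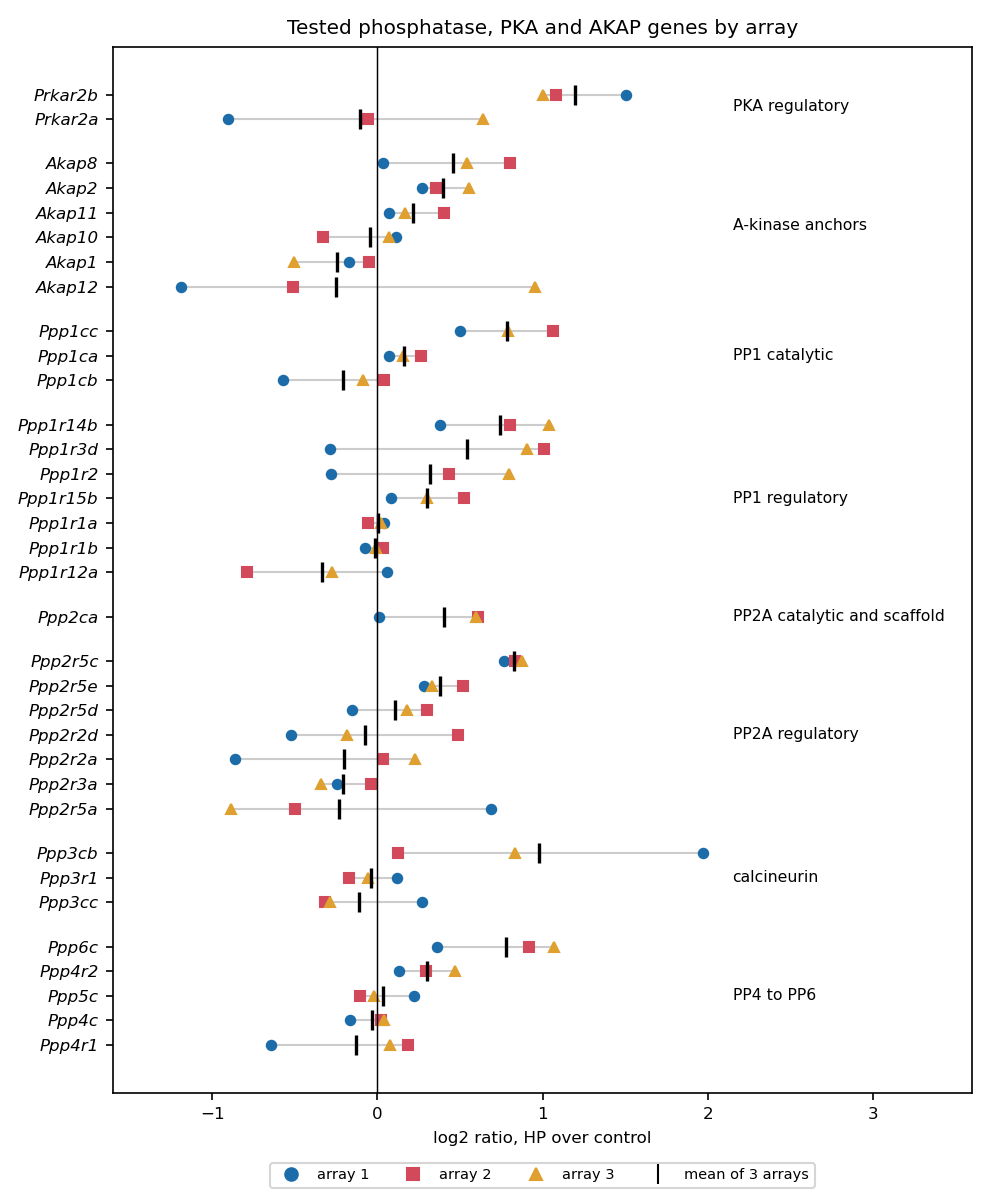
Log2 ratio of HP over control (x axis) for the 34 tested family genes (rows, grouped by class). Points are the 3 arrays and bars the mean; Ppp2r5c has the tightest points of the higher genes, at 0.77 to 0.88, while Akap12, Prkar2a and Ppp2r5a lie on both sides of 0.

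With loess and the filter on dim probes, catalytic minus regulatory was slightly below 0 on average in PP1 and above 0 in PP2A. In PP1 the catalytic median was above the regulatory one on array 1 and below it on arrays 2 and 3. On every array that catalytic median was the value of Ppp1ca, which was close to background, with Ppp1cc above it and Ppp1cb below it. In PP1 the median of the 3 catalytic genes was 0.07, 0.27 and 0.15 on the 3 arrays and that of the 7 regulators 0.04, 0.43 and 0.30, a difference of catalytic minus regulatory of −0.09 ± 0.11 (SD, n = 3), which was 0.16 with no filter on dim probes and −0.30 over genes detected in both groups. In PP2A the one catalytic gene, Ppp2ca, stood against a median of −0.16, 0.30 and 0.18 over the 7 regulatory genes, a difference of 0.30 ± 0.13 (SD, n = 3). The PP2A difference was −0.04 with median centring, −0.00098 with no filter on dim probes, and 0.13 with the mean over the probes of a gene. In PKA the comparison could be made only with no filter on dim probes, where catalytic minus regulatory was −0.04, −0.13 and −0.30, and both catalytic genes were then at background in every HP pool. The difference between PP1 and PP2A was not tested, and 3 arrays cannot give an exact two-sided sign-flip p under 0.25.

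The PKA regulatory subunits gave the highest and one of the most variable ratios of the family. Prkar2b encodes RIIβ, a regulatory subunit that binds the catalytic subunits and docks on AKAPs. Its normalized log2 signal was 7.69, 7.98 and 7.86 in HP pools 1, 2 and 3, against 6.18, 6.90 and 6.86 in the control pools. All HP pools lay above all control pools, and the gene was 2.29-fold higher in HP, with a log2 ratio of 1.20 ± 0.27 (SD, n = 3; moderated SE 0.15). It was the only family gene at least 2-fold higher on all 3 arrays (2.94% of the 34), beside 0.152% of all tested genes, and none was 2-fold lower on all 3, beside 0.221%. The control pool was above background on 2 of the 3 arrays. The ratio was positive in all 15 alternatives that gave it, between 0.69 with median centring and 2.94 with the scanner software's log ratio.

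Prkar2a, which encodes RIIα, did not share this pattern. Its log2 signal was 7.49, 7.46 and 7.12 in the HP pools, against 8.39, 7.52 and 6.49 in the control pools. The groups overlapped fully, with the HP pools inside the range of the control pools, and the mean ratio was −0.11 ± 0.77 (SD, n = 3). The other 3 probes of Prkar2a were above background in no pool. The RIα and RIβ genes Prkar1a and Prkar1b, and the catalytic genes, had log2 signals between 6.21 and 6.50 at every probe and pool, which is at or near background, so the comparison of RII with RI and with catalytic subunits was not detectable at these signals.

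Of the 6 tested A-kinase anchors, 3 were above 0 on all 3 arrays (Akap2, Akap8 and Akap11), beside 23.2% of all genes, 1 was below 0 on all 3 (Akap1), beside 25%, and 2 were mixed. As noted, Akap11, Akap1 and Akap10 were each tested only through the group where their mean was higher. The anchor median was 0.05, 0.15 and 0.36 on the 3 arrays (0.19 ± 0.15, SD, n = 3), and was −0.30 with median centring. Akap8 encodes a nuclear anchor that binds chromatin. Its signal was 10.66, 11.15 and 11.05 in the HP pools, against 10.63, 10.34 and 10.51 in the control pools. The HP pools were all higher, but on array 1 by only 0.03, and the mean ratio was 0.46 ± 0.39 (SD, n = 3). Its second probe gave 0.01, 0.78 and −0.01, so the excess at that probe lay on array 2.

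Akap2, an anchor linked to the actin cytoskeleton and now named Pakap in RefSeq, was more even. Its signal was 9.09, 9.23 and 9.25 in the HP pools, against 8.83, 8.87 and 8.69 in the control pools. The groups did not overlap, with a mean ratio of 0.39 ± 0.15 (SD, n = 3), or 1.31-fold higher in HP. With median centring Akap8 was at −0.53 and Akap2 at −0.42, both below the median over all genes of −0.39. Akap11, which anchors both PKA and PP1, was well above background on 2 HP arrays and in no control pool. Its mean was 1.16-fold higher in HP. Such values set the detected group against the higher of the dimmest detected signal of each array and the dim probe itself. In every gene given here the dim probe was the higher, so the value is the measured mean fold and no lower bound. It is open to dye bias. Akap1, the anchor of the outer mitochondrial membrane, was well above background on 2 control arrays and in no HP pool. Its mean was 1.18-fold higher in control. Measured means were 6.48 in HP and 6.26 in control for Akap11, and 6.45 in HP and 6.69 in control for Akap1.

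Akap12, known as gravin, a scaffold at the plasma membrane, had different signs on different arrays. Its signal was 8.17, 8.90 and 8.80 in the HP pools, against 9.36, 9.42 and 7.85 in the control pools. The control pool of array 3 was the lowest of the 6, and the mean ratio was −0.25 ± 1.09 (SD, n = 3). Akap10, which is found at mitochondria and endosomes, had a mean ratio of −0.05 with array values between −0.33 and 0.11.

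**Figure D2:**
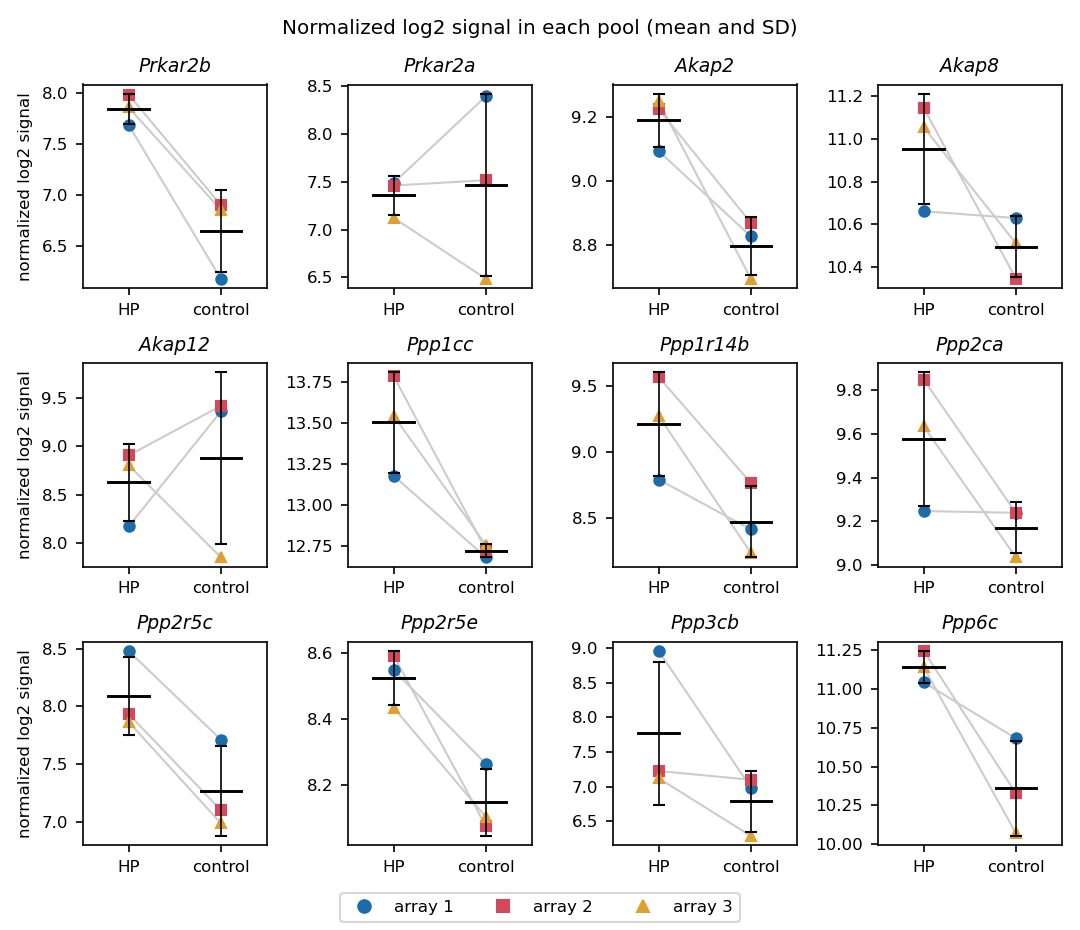
Normalized log2 signal (y axis, own scale in each panel) of 12 family genes in the 3 HP and 3 control pools. Points joined by a grey line share an array, and black bars are the mean and SD; the groups are apart for Prkar2b (7.69 to 7.98 in HP, 6.18 to 6.90 in control) and overlap for Prkar2a and Akap12.

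The catalytic subunits of PP1 differed from each other. Ppp1cc, which encodes PP1γ, had a signal of 13.18, 13.79 and 13.54 in the HP pools, against 12.68, 12.73 and 12.76 in the control pools. The control pools lay close together (SD 0.04), every HP pool lay above them, and the ratio was 0.78 ± 0.28 (SD, n = 3), or 1.72-fold higher in HP. Its second probe gave 0.01, 0.58 and 0.05, with a mean of 0.21. Ppp1cb, which encodes PP1β, the catalytic subunit of myosin phosphatase, had 9.06, 9.74 and 9.90 in the HP pools, against 9.63, 9.70 and 9.99 in the control pools. The groups overlapped, with a mean of −0.21 ± 0.32 (SD, n = 3). Ppp1ca, which encodes PP1α, was at 0.16 ± 0.10 (SD, n = 3) and close to background, with overlapping groups.

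Among the PP1 regulators, Ppp1r14b and Ppp1r15b had ratios above 0 on all 3 arrays and the other 5 tested genes had mixed signs. Ppp1r14b encodes an inhibitor of PP1 that is related to the inhibitor of myosin phosphatase. Its signal was 8.79, 9.57 and 9.27 in the HP pools, against 8.41, 8.76 and 8.23 in the control pools. The lowest HP pool lay just above the highest control pool, and the ratio was 0.74 ± 0.34 (SD, n = 3), or 1.67-fold higher in HP. Ppp1r15b, which directs PP1 to the translation factor eIF2α, had ratios of 0.08, 0.53 and 0.30 and overlapping groups. A second probe of Ppp1r15b was well above background on 2 HP arrays and in no control pool. It had mixed signs, at −0.17, 0.55 and 0.12, and its measured mean was 1.12-fold higher in HP.

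Ppp1r2, or inhibitor 2, had ratios of −0.28, 0.43 and 0.79 at its brightest probe, −0.10, 0.30 and 0.65 at the next, and 0.21, 1.43 and 1.12 at the remaining one. Array 1 had the lowest ratio at each of these probes. Ppp1r3d, which targets PP1 to glycogen, likewise had −0.29 on array 1 and 1.01 and 0.90 on arrays 2 and 3. Ppp1r12a, the myosin-targeting subunit, was at −0.34 ± 0.43 (SD, n = 3). Inhibitor 1 (Ppp1r1a) and DARPP-32 (Ppp1r1b), both of which block PP1 once PKA has phosphorylated them, were near background at means of 0.00 and −0.02.

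In PP2A, Ppp2ca encodes the α catalytic subunit. Its signal was 9.25, 9.85 and 9.63 in the HP pools, against 9.24, 9.24 and 9.04 in the control pools. HP pool 1 was only 0.01 above its control, and the mean ratio was 0.40 ± 0.34 (SD, n = 3). The dimmer probe of Ppp2ca, printed above, gave −0.33, −0.33 and 0.03. It was therefore lower in HP on arrays 1 and 2, at signals close to background (6.35 to 6.41 in HP pools, 6.32 to 6.73 in control pools).

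The B56 regulators of PP2A, which at the centromere help to protect cohesin in meiosis, held one of the steadiest ratios of the family. Ppp2r5c (B56γ) had a signal of 8.48, 7.93 and 7.86 in the HP pools, against 7.71, 7.10 and 6.99 in the control pools. The ratio was 0.77, 0.83 and 0.88 on the 3 arrays, or 1.77-fold higher in HP, and its SD of 0.05 was smaller than the SD of the signals within HP pools (0.34) or control pools (0.39). The RefSeq probe of the gene gave 0.19, 0.02 and −0.05, and was above background in 1 HP pool and 2 control pools. A further pair of Ppp2r5c probes was above background in no pool, so the ratio of 0.83 rests on the cDNA clone probe.

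Ppp2r5e (B56ε) gave opposite directions at its probes. At the brighter one the signal was 8.55, 8.59 and 8.43 in the HP pools, against 8.26, 8.08 and 8.10 in the control pools, a ratio of 0.38 ± 0.12 (SD, n = 3) with no overlap. At the RefSeq probe it was 6.77, 7.95 and 7.58 in the HP pools, against 7.63, 8.90 and 7.86 in the control pools. That probe was lower in HP on all 3 arrays, at −0.86, −0.95 and −0.27, and both probes were above background in all 6 pools. Averaged over its probes, the gene was at −0.16.

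The remaining tested B56 genes had mixed signs. Ppp2r5a (B56α) was at 0.69, −0.50 and −0.89, and Ppp2r5d (B56δ), near background, at −0.16, 0.30 and 0.18. Ppp2r5b (B56β) was above background in 1 HP pool and no control pool and was not tested. The B55 genes, whose complexes dephosphorylate cyclin-dependent kinase substrates at mitotic exit, were on both sides of 0, with Ppp2r2a at −0.86, 0.03 and 0.23 and Ppp2r2d at −0.52, 0.49 and −0.18. Ppp2r3a, of the B″ class, was below 0 on all 3 arrays at −0.25, −0.04 and −0.34, with overlapping groups. A tested probe listed as C530025M11Rik, now assigned to Ppp2r3a, was at −0.05 and 0.08 on arrays 1 and 2 and had no value on array 3.

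The calcineurin catalytic gene Ppp3cb had the second highest mean ratio of the family and one of the largest spreads. Its signal was 8.96, 7.22 and 7.12 in the HP pools, against 6.99, 7.10 and 6.29 in the control pools. HP pool 1 stood far above the other 5, the control was above background on 2 arrays, and the ratio was 1.97, 0.13 and 0.83 (0.98 ± 0.93, SD, n = 3). Without replicate 1 the mean was 0.48. The 3 other probes of Ppp3cb, including both that were designed to the RefSeq transcript, were not tested and had mean ratios between −0.05 and 0.02. Of these, 1 RefSeq probe was above background in 1 HP pool and 1 control pool, and the others in no pool. Ppp3cc, another catalytic gene, was at −0.11 and the regulatory gene Ppp3r1 at −0.04, both near background and of mixed sign.

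Of PP4 to PP6, Ppp6c encodes the catalytic subunit of PP6, which limits the kinase Aurora A. Its signal was 11.04, 11.24 and 11.14 in the HP pools, against 10.68, 10.33 and 10.07 in the control pools. The groups did not overlap, and the ratio was 0.78 ± 0.37 (SD, n = 3), or 1.72-fold higher in HP. The 5′ probe printed above gave 0.21, 0.18 and 0.15, and the 3′ probe −0.16, −0.79 and −0.24, so the 3 probes of Ppp6c ranged over 1.18 log2 units.

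Ppp4r2, a regulatory subunit of PP4, had signals of 13.10, 13.21 and 13.04 in the HP pools against 12.96, 12.92 and 12.56 in the control pools. Its ratio was 0.30 ± 0.17 (SD, n = 3), and −0.88 with median centring. Ppp4c, the PP4 catalytic subunit, was at −0.04, Ppp4r1 at −0.13, and Ppp5c, the catalytic protein of PP5, at 0.03, all 3 near background with mixed signs.

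Within-gene agreement was read over the 8 family genes that had several tested probes. Opposite signs of the mean ratio occurred in 3 of them (Ppp2ca, Ppp2r5e and Ppp6c, 37.5%), beside 470 of 1149 such genes on the whole array (40.9%). The median range between probes of a gene was 0.62 in the family and 0.30 over all such genes, and this difference was not tested. The hexamer AATAAA, searched in the probe sense, was in 5 of the 44 tested family probes (11.4%), in 7.09% of all tested probes and in 4.78% of all probes. On the other strand it was in 4 of the 44 (9.09%), in 4.51% and in 4.25%. Among 19 family genes with several probes placed on 1 chromosome and strand, of which some but not all were tested, the 3′-most probe was tested in 14 (73.7%), beside 66.9% of 3250 such genes in all.

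**Figure D3:**
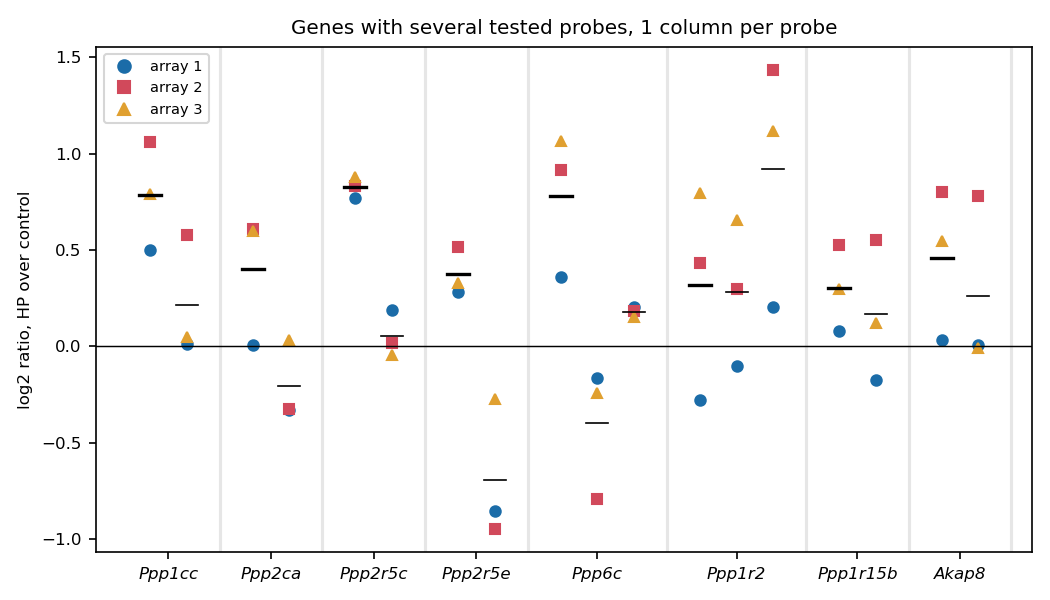
Log2 ratio of HP over control (y axis) at each tested probe of the 8 family genes with several, 1 column of points per probe, brightest probe first and marked by the thicker mean bar. The brightest probe has the higher mean in 7 of the 8 genes, and the probes of Ppp2r5e lie on opposite sides of 0 on every array.

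The number of these genes that read as higher in HP depended on the scaling. With median centring in place of loess, Prkar2b (0.69), Ppp3cb (0.54) and Ppp2r5c (0.23) kept a positive mean, and Ppp1cc (−0.42), Ppp6c (−0.21), Ppp1r14b (−0.06), Ppp2ca (−0.45) and Ppp2r5e (−0.35) did not. Relative to the median over all genes of −0.39 under that scaling, Ppp6c, Ppp1r14b and Ppp2r5e were still above it, and Ppp1cc and Ppp2ca were below it. The number of family genes above 0 on all 3 arrays was 3 under median centring, against 14 with loess (41.2%, beside 23.2% of all genes). The share of all genes under median centring is not given, so the fall is not read as a result about the family. Over the mean ratios of all genes the median was −0.39 under median centring and −0.01 with loess. In the family these medians were −0.25 and 0.07.

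**Figure D4:**
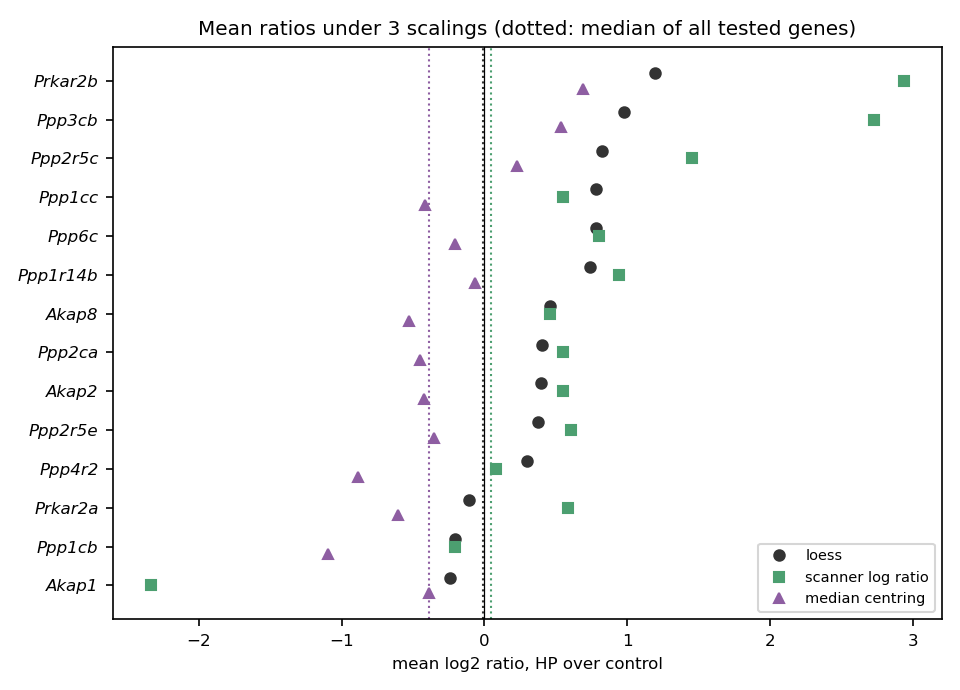
Mean log2 ratio of HP over control (x axis) of 14 family genes under loess, the scanner software's log ratio and median centring, with dotted lines at the median of all tested genes. Prkar2b, Ppp3cb and Ppp2r5c stay above 0 under all 3 scalings, while Ppp1cc moves between 0.78 and −0.42.

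Genes that act on these enzymes were read from a list of 77 genes for cyclic AMP, PP2A and calcineurin signalling, of which 75 were on the array and 30 were tested. Of these, 7 were higher in HP on all 3 arrays, beside 23.2% of all genes, 9 were lower on all 3, beside 25%, and 14 were mixed. By limma 0 passed the adjusted threshold, and at an unadjusted p under 0.05, 2 were higher and 3 lower, beside 7.25% and 11.2% of all genes. The median was −0.03, beside −0.01 over all tested genes. Mastl, the Greatwall kinase that leads to inhibition of PP2A-B55, had signals of 7.30, 7.29 and 7.34 in the HP pools, against 8.18, 8.40 and 8.14 in the control pools. The groups were well apart, and the ratio was −0.93, with −1.57 under median centring. Set, a protein inhibitor of PP2A, was at −0.30, −0.80 and −0.41 with overlapping groups. Nfatc3, a transcription factor that calcineurin activates, was at −0.39, −0.16 and −0.99.

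On the higher side, Gnai1, the inhibitory G protein subunit that lowers cyclic AMP, was at 1.71, 0.14 and 1.24, with every HP pool above every control pool. Tiprl, which binds the catalytic subunits of the PP2A type, was at 0.20, 0.86 and 1.13, and at −0.17 on average under median centring. Pde8a, a phosphodiesterase that breaks down cyclic AMP, was well above background on 2 HP arrays and in no control pool. It was tested only through HP, and its measured mean was 1.22-fold higher there. Its measured means were 6.56 in HP and 6.28 in control.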

How the data were processed

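Spot values come from Agilent Feature Extraction, version 9.5.1.1 per the file headers and the submitters' processing notes. The deposited mean spot signals and local background signals are intensity values with no background subtracted, and the deposited ratio is a log10 value of Cy5 over Cy3 after the software's own background subtraction and dye normalization. The log10 values of the authors' series table are the same to within 5e-10. Per the labels, 240 pg of RNA per pool was amplified in successive rounds, with HP in Cy5 and control in Cy3.

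Mean signals were corrected with normexp (offset 50) and normalized by loess within each array (limma 3.58.1, R 4.3.3), with control spots at weight 0, outlier spots left out and spots of a probe averaged. Channel signals were rebuilt from the ratio and the mean log2 intensity of the array, with intensities brought to a common distribution between arrays. A gene was read at its brightest tested probe. An intercept was fitted to the log2 ratios of all tested genes with empirical Bayes moderation and Benjamini-Hochberg adjustment (threshold 0.05), on arrays of 1 slide. The array itself pairs the pools. Limma p-values cover the spread among 3 pairs of pools and nothing more, and the number of arrays limits the precision. The fit was tested on simulated data.

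Genes were named by class, sign on all arrays and size of the ratio: every tested catalytic, scaffold and PKA gene, then up to 6 in each direction per class and 3 in each direction from the list of related genes. Other members were named after their values were seen. Probe sequences and mm7 positions are those of the array design in the scanner tables. The members and lists were chosen with earlier results of these data known. The 16 alternatives, of which detection in both groups was added after seeing the data, are given in the closing section.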

Additional observations from a re-analysis of the deposited data

How the results depend on the processing

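Of 16 alternatives, the scanner software's log ratio and the series table gave nearly the same values. They turned none of the genes of 1 sign on all arrays, while median centring turned 11. The scanner log ratio moved several genes further in size than median centring did: Prkar2b 2.94, Ppp3cb 2.73, Akap11 2.18, Gnai1 2.06, Pde8a 1.97, Ppp2r5c 1.45, Ppp1r15b 1.09, Ppp1ca 0.70, Akap1 −2.34 and Ppp3cc −1.51. It put Prkar2a, of mixed sign, at 0.59. The family median (0.16) was 0.41 with the scanner log ratio and with the series table, 0.27 with an offset of 0, 0.35 with the filter on both channels, 0.30 over genes detected on 2 arrays in both groups (an alternative chosen after seeing the data), 0.0095 with no filter on dim probes, and −0.26 with median centring. Taken over the mean ratios of the genes, the family median was 0.07 in the main setting, beside −0.01 over all genes. With the mean over the probes of a gene these were 0.02 and −0.02. The anchor median (0.19) was −0.30 with median centring and 0.010 with no filter. For PP1, catalytic minus regulatory (−0.09) was −0.29 with median centring, −0.30 over genes detected in both groups and 0.16 with no filter. For PP2A (0.30) it was −0.037, −0.00098 and, with the mean over probes, 0.13. Counts of family genes above 0 on all arrays (14) were 3 with median centring. Those below 0 on all arrays (2) were 16 with median centring, 9 with no filter, and 1 each with the filter on both channels, with detection in both groups and with the mean over probes. Higher genes at unadjusted p (7) were 3 with the scanner log ratio and the series table, 1 with median centring, 4 with scale normalization and 3 with replicates 2 and 3 averaged. Lower ones (0) were 1 with the scanner log ratio and the series table and 10 with median centring, which also called 1047 of all genes at the adjusted threshold. Under median centring the median over the mean ratios was −0.39 over all genes and −0.25 in the family. Apart from detection in both groups, shares of all genes are not given for counts under the alternatives. Those counts are therefore not read as results about the family.

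Leaving out 1 replicate gave 14 to 20 genes above 0 on all remaining arrays, 4 to 7 below 0, 3 to 11 higher and 0 to 1 lower at unadjusted p. Fewer arrays have to share a sign there. The higher count was 11 without replicate 1, 4 without replicate 2 and 3 without replicate 3. With median centring these genes turned negative: Ppp1ca −0.0084, Ppp1cc −0.42, Ppp2ca −0.45, Ppp6c −0.21, Ppp1r14b −0.063, Ppp1r15b −0.0048, Ppp2r5e −0.35, Ppp4r2 −0.88, Akap8 −0.53, Akap2 −0.42 and Tiprl −0.17. Ppp2r5e was −0.16 with the mean over probes. Apart from the averaging of probes and arrays, the cause of these shifts was not tested. Separate channels with no replicate block gave 8 higher genes at unadjusted p and changed no call at the adjusted threshold. The PKA comparison of catalytic with regulatory genes had no value under any setting that kept the filter, and slide as a block was not run, since there was 1 slide. Signal over background limits 43 of the 77 genes, which were not tested.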

Other observations

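Several subunits of these phosphatases carry older names on the array and fall outside the choice by symbol. Under their current RefSeq symbols they add 48 probes, of which 13 were tested, and the genes named here were chosen after their values were seen. Ppp4r3a, a regulatory subunit of PP4 listed as 1110034C04Rik, had 3 tested probes, all higher in HP on all 3 arrays, with mean log2 ratios of 0.23, 0.31 and 0.35. Ppp4r3b, its close relative, disagreed between its probes at −0.47 and 0.28. Of the PP6 regulators, Ppp6r1 (listed as Saps1) was at 0.31, −0.99 and −0.59 on arrays 1, 2 and 3, and Ppp6r3 (Saps3) at −0.70, 1.55 and 0.51 at 1 probe and −0.13, −0.31 and −0.07 at another. Ppp2r3c, a PP2A regulator, was at −1.16, −0.25 and 0.42. The anchor gene Akap17b was above 0 on all 3 arrays, at 0.02, 0.46 and 0.35.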
